A study of Mus musculus with 20 samples.

Results

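The Slc25 genes encode the mitochondrial carriers, and 47 protein-coding genes of the mouse carry a symbol of this family (Slc25a followed by a number) out of 21631 genes that code for proteins on the autosomes and chromosome X. They were chosen by symbol alone from the RefSeq gene table of GRCm38.p6, the assembly that mm10 corresponds to, and 1 pseudogene with such a symbol was left out. Binding of ATF4, a bZIP transcription factor of the integrated stress response, had been mapped by CUT&Tag, in which an antibody directs a transposase to the protein of interest so that nearby DNA is tagged and sequenced. The cells were C2C12, a line of mouse myoblasts, of wild-type genotype in both groups. One group was treated for 6 h with DMSO, the solvent, and the other for 6 h with 100 nM thapsigargin, which blocks the calcium pump of the endoplasmic reticulum and so causes stress there. Each group had 2 replicates. The data used here are the authors' ATF4 peak lists, 1 per treatment, with 803 peaks for DMSO and 8619 for thapsigargin and only a position for each peak. There was thus no replicate error, no height and no read depth, and the labels do not say whether replicates were separate cultures. A longer list can come from more binding, deeper reads or a looser threshold, and these cannot be told apart. The lists hold binding positions and no expression values, so the identity of the cells could not be checked against marker genes.

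Most mitochondrial carriers are small proteins of the inner mitochondrial membrane, and a few members of the family sit in other membranes. They are built from repeats of a short membrane-spanning unit and exchange metabolites between cytosol and matrix. Their substrates include ADP and ATP, phosphate, amino acids, carboxylates, iron and cofactors such as coenzyme A, folate and glutathione. ATF4 is known for driving genes of amino acid supply and one-carbon metabolism, part of which runs inside mitochondria, and it commonly binds DNA together with C/EBP proteins at composite sites with a TGATGNAA core.

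In the thapsigargin list, ATF4 peaks lay at an end of 10 of the 47 carrier genes, namely Slc25a24, Slc25a28, Slc25a32, Slc25a35, Slc25a39, Slc25a40, Slc25a41, Slc25a42, Slc25a44 and Slc25a46. In the DMSO list it was 1, Slc25a28, which encodes the iron carrier mitoferrin-2. A peak counted as being at a gene end when its centre lay within 1 kb of the start or end coordinate of the gene. The share in thapsigargin was 21.3% (95% Wilson interval 12.0% to 34.9%), and among the 21584 other protein-coding genes it was 15.1%, a value inside that interval. In DMSO the share was 2.13% (interval 0.377% to 11.1%), beside 1.28% of the other genes. With 47 genes, the interval spanned the share of other genes in both lists. The intervals cover counting error only. With centres within 500 bp of a gene end, 5 of the 10 genes counted in thapsigargin (10.6%, beside 12.5% of other genes) and 0 in DMSO.

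Promoter sequences of carrier genes under ATF4 peaks are given first, since they are the regulatory DNA that the peaks cover. RefSeq promoter windows of GRCm38.p6, from 250 bases before to 50 after a transcription start, matched 36 of the 47 genes, with 46 windows in all. The 11 genes without a window include 5 of the 10 with a thapsigargin gene-end peak, namely Slc25a32, Slc25a35, Slc25a41, Slc25a44 and Slc25a46. Shares over windows leave these genes out. The peak at Slc25a24 began just beyond its window and did not count as an overlap. A thapsigargin peak overlapped 4 of the 46 windows (8.7%, interval 3.43% to 20.3%), beside 14.9% of 20999 windows of other protein-coding genes, and a DMSO peak overlapped 1 (2.17%), beside 1.2%. The 4 windows were those of Slc25a28 (chr19:43674832-43675131, minus strand), Slc25a39 (chr11:102407468-102407767, minus strand), Slc25a40 (chr5:8422588-8422887, plus strand) and Slc25a42 (chr8:70212232-70212531, minus strand). Capitals mark CCAAT on either strand and TTGCNNNA on either strand, the only motifs of those searched that were found in these 4 windows.
Slc25a28: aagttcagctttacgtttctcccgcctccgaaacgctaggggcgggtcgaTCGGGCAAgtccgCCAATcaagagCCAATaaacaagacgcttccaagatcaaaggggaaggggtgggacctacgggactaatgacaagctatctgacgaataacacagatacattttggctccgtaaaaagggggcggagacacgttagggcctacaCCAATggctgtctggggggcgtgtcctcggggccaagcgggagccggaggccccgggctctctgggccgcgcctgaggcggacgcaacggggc
Slc25a39: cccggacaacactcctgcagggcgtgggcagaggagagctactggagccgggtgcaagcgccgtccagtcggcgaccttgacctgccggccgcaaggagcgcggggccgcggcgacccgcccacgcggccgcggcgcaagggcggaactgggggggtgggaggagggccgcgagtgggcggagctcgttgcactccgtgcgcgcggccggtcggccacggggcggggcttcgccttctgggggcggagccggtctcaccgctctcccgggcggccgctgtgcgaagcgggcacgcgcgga
Slc25a40: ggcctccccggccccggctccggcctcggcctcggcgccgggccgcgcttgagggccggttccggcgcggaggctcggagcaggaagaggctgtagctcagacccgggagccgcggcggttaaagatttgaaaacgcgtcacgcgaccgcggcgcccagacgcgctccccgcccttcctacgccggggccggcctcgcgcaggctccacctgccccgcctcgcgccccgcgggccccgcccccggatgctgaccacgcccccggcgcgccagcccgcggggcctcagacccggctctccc
Slc25a42: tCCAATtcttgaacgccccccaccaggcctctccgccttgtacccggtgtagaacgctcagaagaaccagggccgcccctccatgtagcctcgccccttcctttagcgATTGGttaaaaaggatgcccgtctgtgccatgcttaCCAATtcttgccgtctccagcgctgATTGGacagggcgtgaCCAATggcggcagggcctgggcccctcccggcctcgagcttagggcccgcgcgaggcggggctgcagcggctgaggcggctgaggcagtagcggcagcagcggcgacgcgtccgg

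The window of Slc25a42, which encodes a coenzyme A carrier, held CCAAT 5 times, and that of Slc25a28 held it 3 times. Neither motif was found in the windows of Slc25a39 and Slc25a40, which encode glutathione carriers and had a GC content of 77.3% and 79.0%, against a median of 59.3% over the 46 carrier windows and 56.7% over the others. The single TTGCNNNA match at Slc25a28, lay at -200 to -193 relative to the transcription start. The thapsigargin peaks covered all 300 bases of the Slc25a39 and Slc25a42 windows, 280 of Slc25a40 and 240 of Slc25a28. These peaks were 1883, 1316, 802 and 1668 bp wide in the same order, so the windows hold only a part of each. Motifs were not searched in the rest of these peaks, nor in the gene-end peaks that overlap no window. Of the DMSO peak at Slc25a28, 113 of its 1233 bases fell into the window, so that most of this peak lies farther upstream than the printed sequence.

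No carrier window held the ATF4 composite motif TGATGNAA on either strand (0 of 46, interval up to 7.71%). Of the other windows 3.46% did, a value inside that interval. Some windows of the same gene overlap, as at Slc25a23 and Slc25a14, and the intervals treat all windows as separate. Its narrower form TGATGCAA, a subset of the same matches, was likewise in 0 of 46 and in 0.852% of the others. Among other promoters the composite motif was found in 3.84% of the 3122 windows under a thapsigargin peak and in 20.6% of the 252 windows under a DMSO peak. The cyclic AMP response element TGACGTCA, which reads the same on both strands, was in 2 carrier windows (4.35%, beside 2.25% of the others). Neither lay under an ATF4 peak, and 0 of the 4 carrier windows under a peak held it. Of the other promoters, 5.0% under a thapsigargin peak and 1.77% of those without one held it. TGACTCA, the AP-1 site, was in 1 window, at Slc25a13 (2.17%, beside 4.69%). TTGCNNNA, of which every TGATGCAA holds a match, was in 8 (17.4%, beside 32.1%), where 2 overlapping windows of Slc25a23 hold the same matches. CCAAT, the box bound by NF-Y, was searched after the sequences had been seen. It was in 22 of 46 carrier windows (47.8%, beside 38.5%), and in 44.3% of the other windows under a thapsigargin peak.

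The 2 windows with TGACGTCA are shown because they hold the full element at carrier genes without a peak there. They belong to Slc25a25, an ATP-Mg carrier (chr2:32424193-32424232, minus strand), and Slc25a36, a pyrimidine nucleotide carrier (chr9:97111179-97111218, minus strand). The element is in capitals in these stretches of 40 bases.
Slc25a25: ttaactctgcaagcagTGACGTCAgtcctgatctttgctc
Slc25a36: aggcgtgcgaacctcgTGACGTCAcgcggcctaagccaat

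The nearest thapsigargin peak was centred 71.5 kb from Slc25a25 and 231 kb from Slc25a36. All of these matches are letters in a window and not measured sites.

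**Figure D1:**
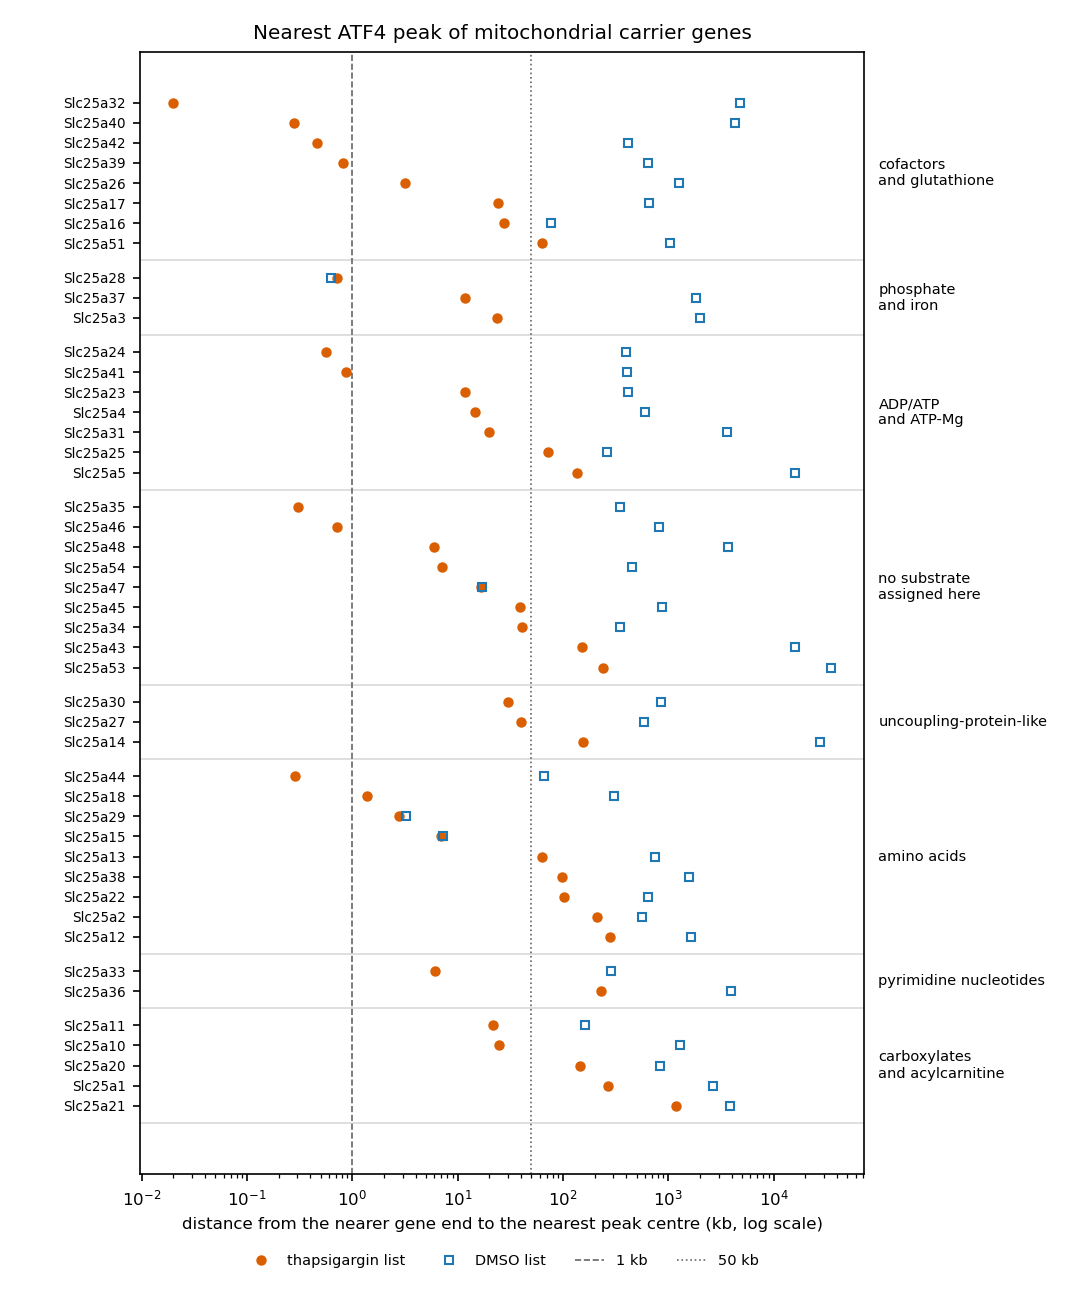
Distance in kb, on a log scale, from the nearer gene end to the nearest ATF4 peak centre for 46 of the 47 carrier genes (rows, grouped by substrate), with filled circles for the thapsigargin list and open squares for the DMSO list. Dashed and dotted lines stand at 1 kb and 50 kb, and 10 circles but 1 square lie left of the dashed line.

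By substrate, the carriers of cofactors and glutathione had thapsigargin peaks at 4 of 9 genes, those of ADP, ATP and ATP-Mg at 2 of 7, those of phosphate and iron at 1 of 3 and those of amino acids at 1 of 9. None of the 5 carboxylate and acylcarnitine carriers, the 2 pyrimidine nucleotide carriers or the 3 uncoupling-protein-like genes had one. Among the 9 genes to which no substrate was assigned here, 2 had one. Beside all of these counts stands the 15.1% of other protein-coding genes with a gene-end peak. It would amount to fewer than 1 gene in each of the groups of 2 to 5. In the cofactor group, the peaks at Slc25a32 and Slc25a40 also lay at ends of Dcaf13 and Dbf4. The groups were drawn up with earlier results of these data known. Groups of this size give counts only, and differences between them were not tested.

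The cofactor group held the peak with its centre nearest to a gene end. Slc25a32, which encodes the mitochondrial folate carrier, had a thapsigargin peak from 39112209 to 39113272 on chromosome 15, 1064 bp wide and centred 20 bp outside the gene (39091230 to 39112720). Dcaf13 begins 153 bases beyond that end, 134 bp from the peak centre, so that the peak covers the space between both genes. The nearest DMSO peak was 4760 kb from Slc25a32.

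At Slc25a40 (chromosome 5, 8422730 to 8454839) the thapsigargin peak spanned 8422608 to 8423409, was 802 bp wide and was centred 278 bp inside the gene. The neighbour Dbf4, which encodes the regulatory subunit of the CDC7 kinase, ends 4 bases away and 283 bp from the peak centre. This peak too lies over ends that a pair of genes share, and the list does not assign it to one of them.

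The other glutathione carrier gene, Slc25a39 (chromosome 11, 102402969 to 102408675), had the widest of the 10 peaks. It spanned 102406917 to 102408799, 1883 bp, which placed it at the 96.1 percentile of width in the thapsigargin list, and its centre lay 817 bp inside the annotated gene end and 341 bp from the transcription start of the promoter window. No other protein-coding gene had an end within 1 kb of its centre. At Slc25a42 (chromosome 8, 70184340 to 70212281) the peak spanned 70212082 to 70213397, 1316 bp, centred 458 bp outside the gene, also with no other gene end within 1 kb.

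Of the remaining cofactor carriers, Slc25a26, which imports S-adenosylmethionine, had a thapsigargin peak inside the gene, 936 bp wide and 3.2 kb from its end. An end of Lrig1 was slightly nearer to the centre of this peak, at 3.07 kb. Slc25a17 and Slc25a16 had their nearest thapsigargin peaks at 24.0 kb and 27.5 kb. Slc25a51, the NAD carrier, had none within 50 kb, with the nearest at 63.7 kb.

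Among the nucleotide carriers, the calcium-regulated ATP-Mg carrier gene Slc25a24 (chromosome 3, 109123149 to 109168409) had a thapsigargin peak from 109123199 to 109124229, 1031 bp wide and centred 565 bp inside the gene. The same peak lay 7.13 kb from the end of its neighbour Slc25a54. Slc25a41, another ATP-Mg carrier gene, counted through a peak of 1136 bp centred 875 bp outside it. This peak covered the end of Khsrp, which encodes an RNA-binding protein, and its centre was 390 bp from Khsrp. With each peak given only to the gene with the nearest end, Slc25a41 dropped out and 9 of 47 carrier genes remained. Slc25a23, which lies beyond Slc25a41, was 11.8 kb from this peak.

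The ADP/ATP carriers that supply the cytosol with ATP had no peak at their ends. Slc25a4, the isoform known from heart and skeletal muscle, had its nearest thapsigargin peak, 594 bp wide, 14.6 kb away. Slc25a31, the isoform of the germ line, had its nearest at 19.9 kb, and Slc25a5 at 136 kb.

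Slc25a28 was the one carrier gene with a peak at its end in both lists. On chromosome 19 (gene from 43663801 to 43675006) the DMSO peak spanned 43675019 to 43676251 and was 1233 bp wide, and the thapsigargin peak spanned 43674892 to 43676559 and was 1668 bp wide. The DMSO peak lay wholly within the thapsigargin peak, and their centres were 90 bp apart. Both centres lay outside the gene, 629 bp from its end in DMSO and 719 bp in thapsigargin, on the side of the transcription start. In width the DMSO peak stood at the 85.5 percentile of its list and the thapsigargin peak at the 91.6 percentile of its own. A second thapsigargin peak of 1202 bp lay inside the gene, 3.43 kb from its other end, without a DMSO peak. The paralog Slc25a37, mitoferrin-1, had a thapsigargin peak of 1328 bp inside the gene, 11.7 kb from the nearer end. Slc25a3, the phosphate carrier, had its nearest at 23.7 kb.

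The amino acid carriers had 1 gene-end peak in thapsigargin, but included 2 of the 3 genes nearest to a DMSO peak. Slc25a44, the carrier of branched-chain amino acids (chromosome 3, 88410494 to 88425141), had a thapsigargin peak from 88424551 to 88425162, 612 bp wide and centred 285 bp inside the gene. Its nearest DMSO peak was 65.8 kb away. Slc25a29, a carrier of basic amino acids (chromosome 12, 108825878 to 108835876), had peaks in both lists inside the gene. The DMSO peak spanned 108832194 to 108833069, 876 bp, and lay 3.25 kb from the gene end at the transcription start. In thapsigargin the peak spanned 108832034 to 108834175, 2142 bp, at the 98.5 percentile of width, and lay 2.77 kb from that end. It enclosed the DMSO peak, with centres 473 bp apart.

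Slc25a15, the ornithine carrier (chromosome 8, 22375550 to 22398621), had peaks outside the gene in both lists. The DMSO peak (22405350 to 22406323, 974 bp) was centred 7.21 kb from the end at the transcription start and the thapsigargin peak (22404870 to 22406333, 1464 bp) 6.98 kb. The end of Mrps31, a mitochondrial ribosomal protein gene, was nearer to both, at 4.61 kb and 4.85 kb. A glutamate carrier gene, Slc25a18, just missed the 1 kb rule with a thapsigargin peak centred 1.39 kb away, 0.92 kb from an end of Cecr2, while Slc25a41 at 875 bp was the farthest to meet it.

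The other 5 amino acid carrier genes had no peak within 50 kb in either list. They were the aspartate/glutamate carriers Slc25a12 (nearest thapsigargin peak 277 kb) and Slc25a13 (63.6 kb), the glutamate carrier Slc25a22 (102 kb), the glycine carrier Slc25a38 (97.0 kb) and the ornithine carrier Slc25a2 (211 kb). Of the carboxylate carriers, the citrate carrier Slc25a1 (267 kb), the acylcarnitine carrier Slc25a20 (145 kb) and the oxodicarboxylate carrier Slc25a21 (1180 kb) also had none within 50 kb. Slc25a11, the oxoglutarate carrier, and Slc25a10, the dicarboxylate carrier, had peaks 21.6 kb and 24.5 kb away.

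**Figure D2:**
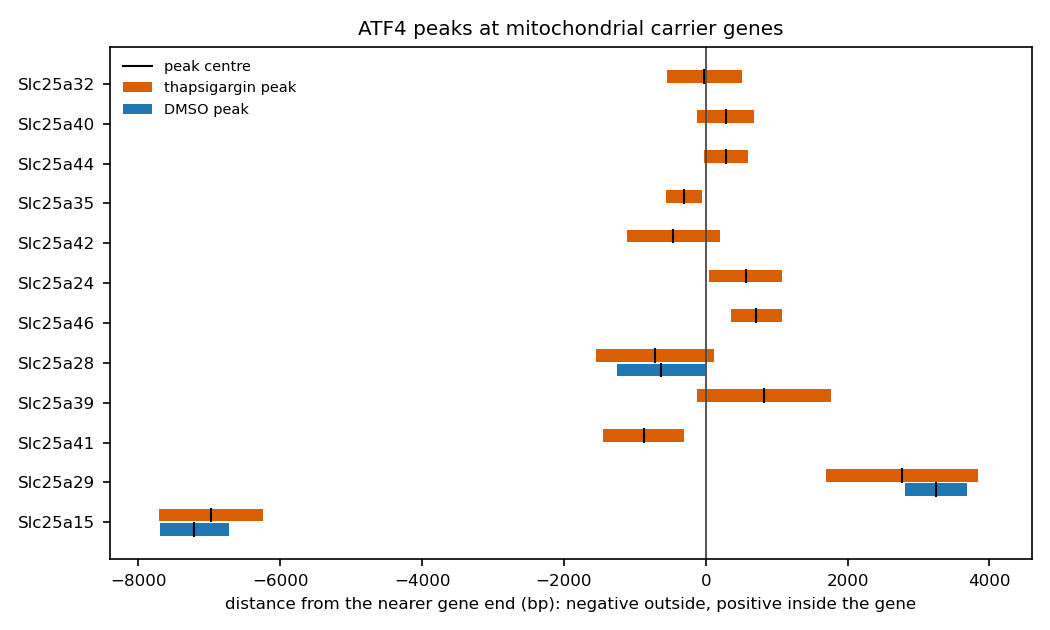
ATF4 peaks as bars along the distance in bp from the nearer gene end (negative outside, positive inside the gene), in orange for thapsigargin and blue for DMSO, with a black tick at each peak centre, for the 10 carrier genes with a gene-end peak and for Slc25a29 and Slc25a15. DMSO bars appear at Slc25a28, Slc25a29 and Slc25a15, each within the extent of the thapsigargin bar above it.

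Genes without an assigned substrate added Slc25a35 and Slc25a46. The Slc25a35 peak (chromosome 11, 68967538 to 68968039) was the narrowest of the 10, with 502 bp at the 4.59 percentile of width, and was centred 308 bp outside the gene. Slc25a46, which encodes a protein of the outer mitochondrial membrane known for its part in mitochondrial shape, had a peak of 712 bp centred 712 bp inside the gene. Slc25a48 had a peak of 659 bp inside the gene, 5.98 kb from an end.

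The 10 gene-end peaks were of ordinary width. They ranged from 502 to 1883 bp with a median of 1050 bp, beside 1030 bp over the 2739 thapsigargin peaks at ends of protein-coding genes. Of the 10 peaks, 5 were centred inside the gene and 5 outside, which was not counted over other genes. The gene end itself was covered by 6, or 12.8% of the 47 genes, beside 12.4% of other genes. The strand was known from the promoter table for 5 of the genes (Slc25a24, Slc25a28, Slc25a39, Slc25a40 and Slc25a42), and at all 5 the peak was at the end with the transcription start. Peaks at the start were also common elsewhere. Of the other genes with a known transcription start, 16.4% (2823) had a peak there, and 15.1% (3257) of all other genes had one at either end. Among carriers with a known start it was 5 of 36 (13.9%). At 3 of the 10 genes (interval of the share 10.8% to 60.3%) the peak centre was also within 1 kb of another protein-coding gene, beside 34.0% of the other genes with a gene-end peak.

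Inside carrier genes, over 1 kb from both ends, thapsigargin peaks were found in 5 of 47 (10.6%, interval 4.63% to 22.6%), beside 10.1% of other genes. These were Slc25a26, Slc25a28, Slc25a29, Slc25a37 and Slc25a48. In DMSO it was Slc25a29 alone (2.13%, beside 1.3%).

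Within 50 kb of the gene, 31 of 47 carrier genes had a thapsigargin peak (66.0%, interval 51.7% to 77.8%) and 51.1% of other genes had one, a value just under the interval. That interval treats the genes as separate, although some carrier genes share a peak. Counting only the protein-coding gene nearest to each peak gave 16 carrier genes (34.0%, beside 25.7%), a share for which no interval is given here. In DMSO 4 had one (8.51%, interval 3.36% to 19.9%, beside 8.01%), namely Slc25a28, Slc25a29, Slc25a15 and Slc25a47. The DMSO peaks near Slc25a47 were the one inside Slc25a29, at 17.2 kb, and one at the adjoining ends of Wars and Wdr25, at 36.8 kb. All 4 DMSO peaks in question overlapped a thapsigargin peak. The share of all 803 DMSO peaks that did so is not given here. The count therefore shows nothing particular to carrier genes. The thapsigargin peaks within 50 kb numbered 44, and some stand near more than 1 carrier gene, as at Slc25a24 and Slc25a54 or at Slc25a29 and Slc25a47. The median distance to the nearest thapsigargin peak centre was 23.7 kb for carrier genes (quartiles 0.383 and 99.4 kb) and 47.0 kb for other genes (quartiles 2.96 and 175.0 kb), where a centre inside the gene counted as 0. In DMSO the medians were 656 kb and 844 kb. Carrier genes were the longer ones, with a median of 21491 bp against 17327 bp, and the part of gene length or gene density in these distances was not tested.

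Of the 17 carrier genes with a thapsigargin peak within 50 kb but neither at an end nor inside, 7 had as their nearest peak one at the end of another gene, which held for 50.2% of the 5975 other genes of this class. Examples are the peak of 1750 bp at Spag7 and Camta2 near Slc25a11, the one at Arl16 and Hgs near Slc25a10 the one at Cdc42ep2 near Slc25a45 and the one at Plekhm2, 41.0 kb from Slc25a34. In 3 cases, Slc25a4, Slc25a17 and Slc25a33, the carrier gene itself had the nearest gene end (16.9% of the other genes). Slc25a33, a pyrimidine nucleotide carrier, had the closest of these, a peak of 1547 bp at 6.05 kb. In the remaining 7 the nearest end belonged to another gene and was over 1 kb from the peak centre (33.0% of the other genes). Examples are Slc25a16 (27.5 kb, 5.62 kb from Tet1), Slc25a27 (40.3 kb), Slc25a30 (30.1 kb) and Slc25a31. A thapsigargin peak within 50 kb was missing at 16 carrier genes. Among them are 3 further genes on chromosome X, namely Slc25a14 (156 kb), Slc25a43 (152 kb) and Slc25a53 (239 kb).

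Other mitochondrial genes were compared as counts. Thapsigargin peaks lay at an end of 24 of 78 mitochondrial ribosomal protein genes (Mrpl and Mrps, 30.8%, interval 21.6% to 41.7%). Of 49 genes chosen only by a symbol that begins with Nduf, named for complex I, 16 had one (32.7%, interval 21.2% to 46.6%). Among 328 transporter genes of other Slc families the share was 11.6% (interval 8.56% to 15.5%), and over all other protein-coding genes it was 15.1%. The share of the carriers, 21.3%, lay between those of the mitochondrial lists and of the other transporters, and its interval overlapped those of all 3. Within 50 kb of the gene, the thapsigargin share was 66.0% for carriers and 51.1% for other protein-coding genes. It was 65.4% for Mrpl and Mrps genes, 55.1% for Nduf genes, 55.2% for other Slc genes and 71.4% for the 28 related genes described next.

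Genes related to the carriers were followed as a mixed list of 28 genes. It held 5 carrier family genes with other symbols, 7 other inner membrane carriers, 3 outer membrane channels and 13 carrier import genes. Of the 28, 12 had a thapsigargin peak at an end (42.9%, interval 26.5% to 60.9%, beside 15.1% of other protein-coding genes) and 0 a DMSO peak (beside 1.28%). A share of 1.28% would amount to fewer than 1 of 28 genes, and the list was chosen with earlier results of these data known. All 3 channels of the outer membrane, through which metabolites reach the carriers, had one. The peaks were 1533 bp wide at Vdac1, 1197 bp at Vdac2 and 569 bp at Vdac3. Of 7 inner membrane carriers of other families, 3 had one. These were both subunits of the pyruvate carrier, Mpc1 (1116 bp, centred 94 bp from the gene end) and Mpc2 (1329 bp, 182 bp), and the serine transporter Sfxn1 (905 bp, 642 bp). DMSO peaks lay 13.5 kb from Mpc1 and 16.4 kb from Sfxn5, another gene of this group.

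The machinery that imports carrier proteins into the inner membrane had 6 of 13 genes with a thapsigargin peak, again beside 15.1% of other genes. They were the outer membrane receptor Tomm70a (619 bp, centred 57 bp from the gene end), the pore Tomm40 (1253 bp), the small chaperones Timm8a1 (1292 bp), Timm8b (1234 bp) and Timm10 (769 bp), and the inner membrane insertase Timm22 (964 bp). None of the 5 genes of the carrier family with other symbols had one, where a share of 15.1% would amount to fewer than 1. Among these, Mtch1 had a peak inside the gene, 6.2 kb from an end, Ucp1 had its nearest at 34.2 kb, and Ucp2, Ucp3 and Mtch2 had none within 50 kb.

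**Figure D3:**
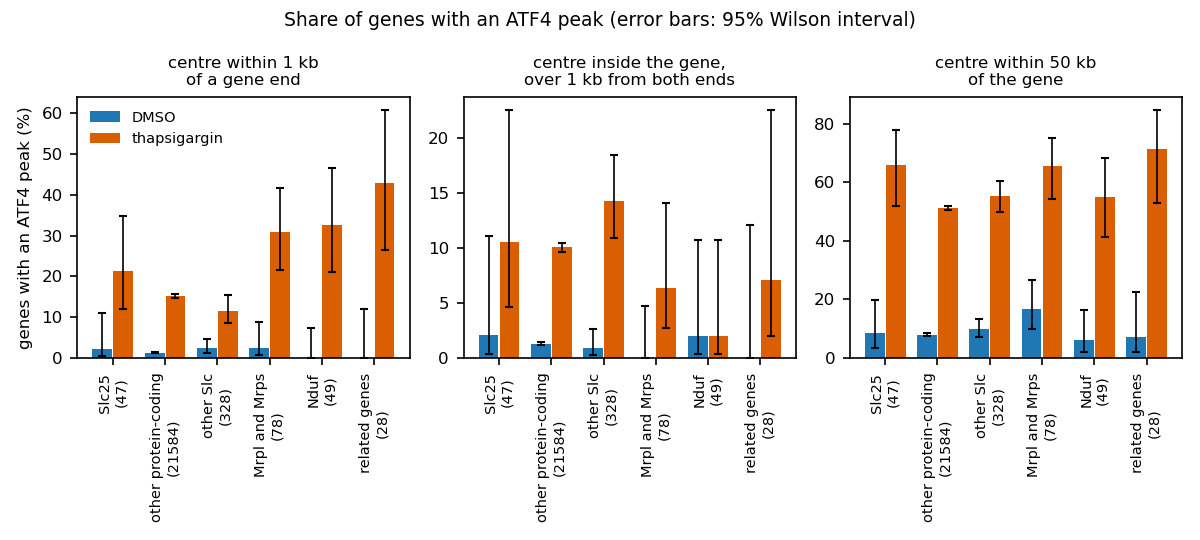
Percentage of genes with an ATF4 peak at a gene end (left), inside the gene (middle) and within 50 kb (right), for carrier genes, other protein-coding genes and 4 comparison lists, with the number of genes in brackets, blue bars for DMSO, orange bars for thapsigargin and error bars for 95% Wilson intervals. At gene ends the thapsigargin bar of the carriers, 21.3%, stands between 15.1% for other genes and 30.8% for mitochondrial ribosomal protein genes.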

How the data were processed

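The series lists CUT&Tag of 5 targets on 20 samples in 10 groups of 2 replicates, and the peak lists of the 2 ATF4 groups were used here. The deposited lists give chromosome, start and end of each peak without score, summit or depth. Per the submitters' processing notes the tools were Bowtie2, MACS2 2.2.7.1 and Trim Galore 0.6.10 on the build mm10, with no parameters. The peak threshold, any control library and the handling of replicates were not given in the sources used here, and 1 list represents each group.

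Gene positions came from the RefSeq table of GRCm38.p6. Peak coordinates count from 1, and the centre is the midpoint, rounded down. Substrate groups, the list of 28 related genes, the comparison families and the rule to name every carrier gene with a gene-end peak were chosen with earlier results of these data known. One carrier gene is counted in all totals but not reported here. The lists were described by counts and 95% Wilson intervals, without a test. Overlap meant at least 1 bp. Motifs were searched on both strands. Alternatives were other windows, peak edges, the nearest gene, wider peaks and the transcription start, and counting was tested on simulated data. Computation used scipy 1.17.1, pandas 2.3.3, numpy 2.4.6 and, for plots, matplotlib 3.10.9 under Python 3.11.15.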

Additional observations from a re-analysis of the deposited data

How the results depend on the processing

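No paired analysis was possible because replicates have no lists of their own, so none could be left out either. Of 30 alternative counts, 16 stayed within 1.5 times the value reported. The 10 thapsigargin gene-end genes became 5 with centres within 500 bp (10.6%, others 12.5%), 6 where the peak covers a gene end (12.8%, others 12.4%), 5 with the wider part of the list (10.6%, others 7.55%), 2 with as many thapsigargin as DMSO peaks (4.26%, others 1.31%), and 5 of 36 at the transcription start only (13.9%, others 16.4%). The carriers' share was above that of other genes in 7 of these 9 settings, the reported one included, and below it with 500 bp and at the transcription start. The settings recount the same genes and peaks, so this number is not independent evidence of a difference. The 36 genes with a known transcription start leave out 5 of the 10 gene-end genes, so that share covers a different set of genes. The 1 DMSO gene-end gene became 0 with 500 bp and with covered ends, and 2 within 5 kb. Thapsigargin peaks inside genes fell from 5 to 3 genes in the wider part of the list. With the nearest protein-coding gene within 50 kb, 16 carrier genes in place of 31 had a thapsigargin peak (34.0%, others 25.7%) and 2 in place of 4 a DMSO peak. Of the 4 sites with peaks in both lists, 2 had centres within 100 bp. The composite motif gave 0 windows, TTGCNNNA 8 and CCAAT, added after the sequences had been seen, 22. These alternatives admit fewer or more matches by construction. Depth is unknown, so a missing peak is not evidence that ATF4 was absent.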
